A study of Mus musculus with 12 samples.

Results

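The immunoglobulin constant genes carry the invariant part of each antibody chain, and 10 rows of the 34745 in the deposited table were followed here by their gene names. They were Ighm, Ighd, Ighg2b, Ighg2c and Igha for the heavy chains of IgM, IgD, IgG2b, IgG2c and IgA, Igkc for the kappa light chain, Iglc1, Iglc2 and Iglc3 for the lambda light chains, and Jchain for the joining chain. Femoral bone marrow of 12 male ICR mice, an outbred stock, was used for RNA sequencing, and the mice fell into 4 groups of 3. Normal mice had saline alone. Model mice had saline by mouth and, from day 5 to day 7, daily injections into the peritoneum of 80 mg/kg cyclophosphamide, an alkylating drug toxic to proliferating cells. The remaining groups had the same injections and a daily oral drug for 1 week, either 3 g/kg of the QJSB granule or 20 mg/kg of leucogen, which is prescribed against low leucocyte counts. The authors' column headings for the groups were Blank, Model, Positive and Stilbene. Blank was read as normal and Positive as leucogen by the meaning of the words, and Stilbene as QJSB because it was the heading left, so every statement about QJSB rests on that reading.

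A B cell first joins the gene segments of its heavy chain and makes the mu chain, which Ighm encodes, and at the pre-B stage this chain sits with a surrogate light chain. Joining of the kappa or lambda locus then gives a complete IgM, and a mature B cell splices the same long transcript to mu or to delta, so that IgM and IgD stand together on its surface. After activation the heavy chain can switch to an IgG, IgA or IgE constant gene, and plasma cells, many of which live in bone marrow, secrete the product. Jchain encodes a small protein that ties IgM and IgA units together for secretion.

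In GRCm38, the build of the files, the heavy chain genes lie on the minus strand of chromosome 12 and Ighm comes first in the direction of transcription. Ighm spans chr12:113418558-113422730, Ighd spans chr12:113406604-113416324, Ighg2b spans chr12:113302965-113307933, Ighg2c spans chr12:113285325-113288932 and Igha spans chr12:113254830-113260236. Igkc is a single exon at chr6:70726435-70726966 on the plus strand. Jchain spans chr5:88519809-88527891 on the minus strand. The lambda genes lie on the minus strand of chromosome 16, with Iglc1 at chr16:19061618-19062071, Iglc3 at chr16:19065230-19065681 and Iglc2 at chr16:19198396-19200351. The files and the GENCODE M21 annotation gave the same positions for all 10. Another gene, 2010309G21Rik, covers Iglc1 and Iglc3 on the opposite strand. It had 74, 97 and 100 counts in the normal libraries and 0 in the other 9. Whether the counting used the strand is not given in the sources used here, so its reads and those of the lambda genes cannot be told apart with certainty. On the same strand, Gm30211 overlaps Igkc and Iglj2 overlaps Iglc2, so reads of these pairs cannot be told apart by strand.

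Of the lambda genes, Iglc2 and Iglc3 are near copies and Iglc1 is more distant, and the first 150 bases of their coding sequence in GENCODE M21 show how far a short read can tell them apart. Iglc1 is taken from chr16:19061922-19062071, Iglc2 from chr16:19198703-19198852 and Iglc3 from chr16:19065532-19065681, each on the minus strand. Capitals mark the 36 positions at which the 3 genes do not all have the same base.
Iglc1: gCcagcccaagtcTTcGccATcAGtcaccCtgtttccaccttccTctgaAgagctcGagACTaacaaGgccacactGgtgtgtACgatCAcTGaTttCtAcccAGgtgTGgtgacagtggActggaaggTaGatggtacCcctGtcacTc
Iglc2: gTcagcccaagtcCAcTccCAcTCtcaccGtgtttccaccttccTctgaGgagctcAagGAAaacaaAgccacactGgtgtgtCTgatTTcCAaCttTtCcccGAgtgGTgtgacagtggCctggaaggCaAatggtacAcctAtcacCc
Iglc3: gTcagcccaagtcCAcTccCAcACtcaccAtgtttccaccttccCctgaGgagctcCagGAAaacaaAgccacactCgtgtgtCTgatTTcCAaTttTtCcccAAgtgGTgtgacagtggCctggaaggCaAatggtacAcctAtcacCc
Iglc2 and Iglc3 were identical at 303 of 314 coding bases (96.5%). Iglc1 was identical to Iglc2 at 230 of 314 bases (73.2%) after a gap of 3 bases. Of all 50-base windows of the annotated transcripts, 10.7% of those of Iglc3 also occurred in Iglc2 and 7.65% of those of Iglc2 in Iglc3, and 0% of those of Iglc1 occurred in another constant gene compared. The IgG genes shared little, with 5.49% of the windows of Ighg2c present in Ighg2b. Ighm, Ighd, Igkc, Igha and Jchain shared none. The split of counts between Iglc2 and Iglc3 is therefore less certain than the other counts. Mouse stocks also differ in whether they carry Ighg2c or its allele Ighg2a, and the reference genome holds the former, so the Ighg2c counts of an outbred stock are uncertain.

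Total counts ran from 11172547 to 18545198 per library. Levels as CPM, the count divided by the library size and given per 1000000, were taken over library sizes scaled by TMM. Of the cyclophosphamide-treated libraries, model 1 and QJSB 1 stood apart. The 7 granulocyte markers summed to 8129 CPM in model 1 against 20141 and 15590 CPM in model 2 and model 3, and to 12051 CPM in QJSB 1 against 36048 and 27944 CPM in the other QJSB libraries. The osteoblast markers Bglap and Col1a1 summed to 306 and 425 CPM in model 1 and QJSB 1, and to between 65.7 and 85.2 CPM in the other 4 libraries of these groups. The 9 pre-B genes summed to 255 CPM in model 1 against 86.2 and 29.2 CPM, and to 60.6 CPM in QJSB 1 against 14.6 and 15.8 CPM. The leucogen libraries had 45100 to 53708 CPM of granulocyte markers, the normal libraries 15021 to 18437 CPM. In whole marrow, fewer cells of a type and less RNA per cell cannot be told apart.

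In the normal libraries the 10 genes together took 25714 to 26412 counts, or 0.173% to 0.186% of all counts. They took 2543, 957 and 865 counts in the model libraries, 1602, 661 and 767 in the QJSB libraries and 505, 384 and 412 in the leucogen libraries. Each treated library thus lay far below each normal one. Compared per transcript length, as FPKM, Igkc was the highest in normal marrow at 796 ± 96.8 (SD, n = 3), followed by Ighm at 459 ± 6.08 and Ighd at 101 ± 13.3. Iglc1 at 38.6 ± 2.87 and Iglc3 at 33.7 ± 2.08 overlapped, Iglc2 followed at 29.6 ± 1.13, and Jchain at 11.99 ± 3.53, Ighg2b at 8.06 ± 6.49, Igha at 3.94 ± 2.51 and Ighg2c at 2.18 ± 1.71 each overlapped with the next. In all 3 cyclophosphamide groups Ighm came first and Igkc second. The model group had 37.5 ± 24.5 FPKM of Ighm and 9.08 ± 4.13 FPKM of Igkc, the QJSB group 23.5 ± 12.2 and 5.42 ± 3.29, and the leucogen group 13.3 ± 2.78 and 3.53 ± 1.94. Ighd followed in each, and from Ighd downward every neighbour in the order overlapped.

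**Figure D1:**
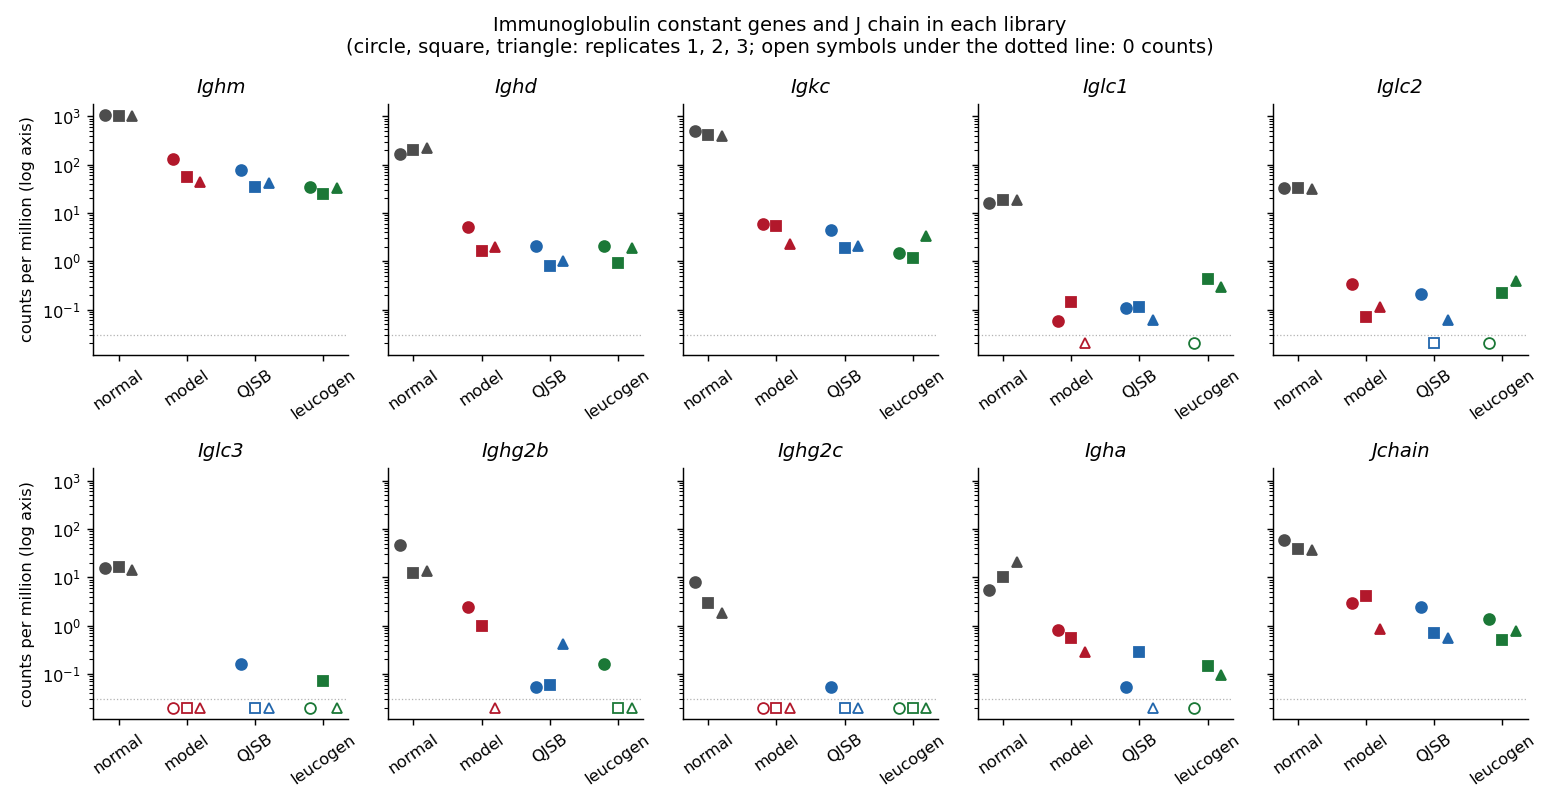
Levels (CPM, log axis) of each of the 10 genes in the 12 libraries by group. Circles, squares and triangles are replicates 1, 2 and 3, and open symbols under the dotted line are libraries with 0 counts. Every gene lay lower in all 9 cyclophosphamide-treated libraries than in the 3 normal ones, and Ighm remained between 24.4 and 129 CPM. Of all genes tested, 28.6% lay wholly below normal in model, 29.9% in QJSB and 32.2% in leucogen marrow. The lambda genes, Ighg2b, Ighg2c and Igha passed the filter on low counts through normal alone and had to differ, as did Jchain with both drugs.

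The comparison of model with normal asks what cyclophosphamide did to the antibody transcripts. Genes were called at a change of over 1.5-fold with a Benjamini-Hochberg adjusted p under 0.05 in edgeR's quasi-likelihood test, a rule that called 19% of 14752 genes lower and 16.1% higher in model. Ighm had 14649, 15015 and 14848 counts in the normal libraries and 2240, 778 and 768 in the model libraries. Its mean level fell 13.6-fold, from 1038 ± 20.05 to 76.2 ± 46.2 CPM (SD, n = 3), with a log2 fold change of -3.76 ± 0.42 (SE, adjusted p = 0.000523). The normal libraries were close to each other, with a coefficient of variation of 1.93%, and model 1 lay well above the other model libraries.

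Ighd had 2331, 2953 and 3139 counts in normal and 88, 23 and 35 in model marrow. It fell 67.3-fold on the mean CPM, with a log2 fold change of -6.05 ± 0.42 (adjusted p = 6.07e-05). Ighd RNA is made mainly by B cells that have left the immature stage. Igkc had 6842, 5873 and 5760 counts in normal and 101, 74 and 40 in model marrow. The kappa gene fell 96.8-fold, with a log2 fold change of -6.60 ± 0.35 (adjusted p = 1.52e-05), and the groups were far apart. Jchain had 831, 551 and 524 counts in normal and 50, 57 and 15 in model marrow. It fell 17.2-fold, with a log2 fold change of -4.12 ± 0.50 (adjusted p = 0.000793).

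Erythroid and T cell markers lay lower in the same libraries. The 7 granulocyte markers went both ways, with 2 called higher and 1 lower, and 0 of the muscle and osteoblast markers were called. All 5 erythroid markers were called lower in model than in normal marrow, with a median log2 fold change of -5.18, and their sum ran from 10202 to 13351 CPM in the normal and from 126 to 1466 CPM in the 9 treated libraries. All 6 T cell markers were called lower, with a median of -2.90. Only Cd3d and Cd4 had enough counts in the model libraries to pass the filter on low counts there. Cd3e, Cd3g, Trbc2 and Cd8a passed it through the normal libraries alone, so their calls and this median are a description. The T cell sum ran from 30.3 to 44.3 CPM in normal and from 7.91 to 17.1 CPM in treated libraries. Against normal, 5 of 5 erythroid markers were also called lower with each drug, with Klf1 passing the filter through normal alone. Of the T cell markers, 5 of 6 were called lower with QJSB and 6 of 6 with leucogen, with the same limit as in model. Their part in the lower antibody transcripts was not tested.

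The other 6 genes passed the filter on low counts through the normal libraries alone, so they had to differ, and their values are given as a description. Iglc1 had 227, 273 and 267 counts in normal and 1, 2 and 0 in model marrow, a ratio of 291 with a 95% counting interval of 99.1 to 1412. Iglc2 had 464, 469 and 445 counts in normal and 6, 1 and 2 in model marrow. Iglc3 had 220, 238 and 208 counts in normal marrow and 0 in each model library, which set against 3 counts over the group made it at least 252-fold lower. The lambda genes thus had at most 6 counts in any model library.

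The switched heavy chains varied most among normal mice. Ighg2b had 659, 180 and 201 counts in the normal libraries and 43, 14 and 0 in the model libraries. Ighg2c had 113, 42 and 27 counts in normal and 0 in each model library, at least 69.0-fold lower set against 3 counts over the group. Normal 1 was the highest normal library for both genes. Igha had 76, 149 and 295 counts in normal and 14, 8 and 5 in model marrow, and here normal 3 was the highest. The coefficients of variation in normal marrow were 81.2% for Ighg2b, 78.8% for Ighg2c and 63.0% for Igha, against 12.8% for Igkc and 4.56% to 6.93% for the lambda genes.

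The remaining constant genes of the annotation were read beside these. Ighg3 had 396, 136 and 109 counts in the normal libraries and 5, 0 and 1 in the model libraries, and Ighg1 had 98, 28 and 33 against 1, 2 and 0. Normal 1 was again the highest for both. Iglc4 had 2, 1 and 6 counts in normal marrow and 0 elsewhere, and Ighe, the IgE gene, had 0 counts in all 12 libraries. A count of 0 allows up to 3 counts, which came to between 0.161 and 0.288 CPM depending on the library and covers counting error only.

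QJSB and leucogen were given daily over the same week as the injections, so these groups do not follow a separate period of recovery. Both groups stayed below normal in each of the 10 genes, in comparisons that share the normal libraries with the one above. In the QJSB group, where 19.9% of 14817 genes were called lower than normal, Ighm had 1421, 595 and 698 counts and a log2 fold change of -4.33 ± 0.31 (adjusted p = 5.61e-05). Ighd had 39, 14 and 17 counts there, Igkc 84, 32 and 34, and Jchain 46, 12 and 9, with log2 fold changes of -7.18, -7.23 and -5.13 against normal. QJSB 1 was the highest QJSB library for all 4. In the leucogen group, where 19.8% of 14637 genes were called lower than normal, Ighm had 441, 336 and 342 counts and a log2 fold change of -5.06 ± 0.15 (adjusted p = 1.65e-08). Ighd had 26, 13 and 20 counts, Igkc 19, 16 and 34, and Jchain 17, 7 and 8, with log2 fold changes of -6.89, -7.80 and -5.64. All 8 of these differences passed the test. With both drugs, however, Jchain passed the filter on low counts through the normal libraries alone, so its values here are a description.

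The lambda and switched genes stayed near 0 under both drugs. Iglc1 had 2, 2 and 1 counts with QJSB and 0, 6 and 3 with leucogen. Iglc2 had 4, 0 and 1 counts with QJSB and 0, 3 and 4 with leucogen, and Iglc3 had 3, 0 and 0 against 0, 1 and 0. Counts of this size give no order among the cyclophosphamide groups. Ighg2b had 1, 1 and 7 counts with QJSB and 2, 0 and 0 with leucogen. Ighg2c had 1 count in QJSB 1 and 0 in the other 5 libraries. Igha had 1, 5 and 0 counts with QJSB and 0, 2 and 1 with leucogen.

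Between QJSB and model, 4 of the 10 genes had enough counts to test, and 0 were called, as for 0% of all 14486 genes tested in either direction by edgeR. Of all genes, 723 had an unadjusted P under 0.05, and DESeq2 called 8, none of them among the 10. The mean CPM of Ighm was 51.1 ± 22.2 with QJSB and 76.2 ± 46.2 in model marrow, a log2 fold change of -0.59 ± 0.46 (adjusted p = 0.786). Ighd had a log2 fold change of -1.16 ± 0.55 (adjusted p = 0.767), Igkc of -0.68 ± 0.47 (adjusted p = 0.772) and Jchain of -1.07 ± 0.71 (adjusted p = 0.767). Jchain, with 9 counts in QJSB 3, passed the filter on low counts here through the model libraries alone, so its value is a description. All 4 groups of values overlapped, and 0 of the 4 genes had an unadjusted P under 0.05. Without model 1 the log2 fold change of Ighm was 0.0225, so its direction rested on that library.

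Between leucogen and model, 4 of the 10 genes could be tested, and Ighm came closest to the threshold. The leucogen libraries had 35.01, 24.4 and 32.8 CPM of Ighm against 129, 55.1 and 44.3 CPM in model marrow, and the groups did not overlap. Of all genes tested, 23.8% lay wholly lower and 22.2% wholly higher with leucogen than in model. The log2 fold change was -1.31 ± 0.41 (adjusted p = 0.0541), just over the threshold. In this comparison 23.1% of 14184 genes were called in either direction and 11.5% lower, and 15.6% were lower at an unadjusted P under 0.05 with the same fold. Igkc with a log2 fold change of -1.18 ± 0.48 (adjusted p = 0.0945) and Jchain with -1.55 ± 0.60 (adjusted p = 0.0839) also passed only the unadjusted rule, and their groups overlapped. Jchain, with 7 counts in leucogen 2, passed the filter on low counts here through the model libraries alone, so its value is a description. Ighd at -0.83 ± 0.51 (adjusted p = 0.247) passed neither. Of the 4 genes, 0 were called at the adjusted threshold. Ighm was called by DESeq2 (adjusted p = 0.0013). By edgeR its log2 fold change was -1.55 (adjusted p = 0.0356) without model 3 and -0.68 (adjusted p = 0.0562) without model 1, the library with the most Ighm.

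With leucogen set against QJSB, 0 of the same 4 genes were called at the adjusted threshold. Ighm had a log2 fold change of -0.71 ± 0.30 in leucogen against QJSB (adjusted p = 0.11), where 24.6% of 14266 genes were called in either direction, 12.9% lower, and 15.8% lower at the unadjusted rule. Ighm reached 76.3, 34.4 and 42.5 CPM with QJSB, so the lowest QJSB library overlapped the leucogen range, and Ighm passed the unadjusted rule alone. Igkc at -0.50 ± 0.51, Jchain at -0.49 ± 0.66 and Ighd at 0.33 ± 0.49 did not pass either rule. Without QJSB 1, Ighm stood at -0.30, Igkc at 0.0139 and Jchain at 0.51.

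**Figure D2:**
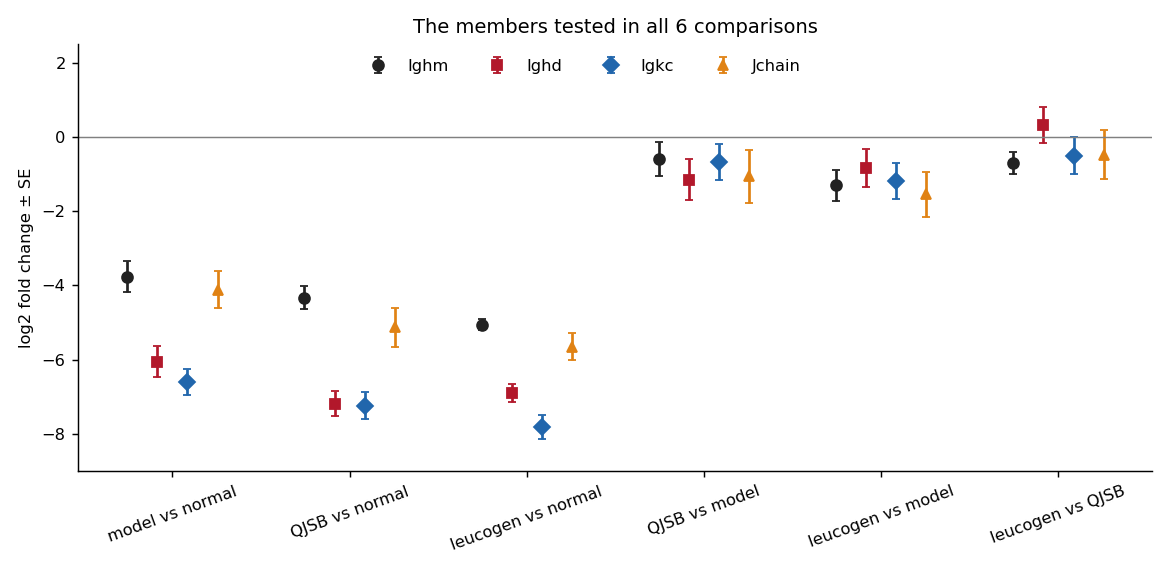
Log2 fold change with its standard error (edgeR, 3 libraries a group) of Ighm, Ighd, Igkc and Jchain in the 6 comparisons. Against normal, Ighm and Jchain lay between -3.76 and -5.64, and Ighd and Igkc between -6.05 and -7.80. Between the cyclophosphamide groups all 4 lay between -1.55 and 0.33. Where QJSB or leucogen was set against normal or model, Jchain passed the filter on low counts through normal or model alone.

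Ratios of counts within a library compare the antibody genes with each other without any scaling between libraries. Igkc had 46.7, 39.1 and 38.8 counts for every 100 of Ighm in normal marrow. It had 4.51, 9.51 and 5.21 in model, 5.91, 5.38 and 4.87 in QJSB and 4.31, 4.76 and 9.94 in leucogen marrow. Model 2 and leucogen 3 were the highest of the treated libraries, and all 9 lay below the normal ones. Per transcript length, Igkc stood at 162 to 195 FPKM for every 100 of Ighm in normal marrow and at 18.0 to 41.5 in the treated libraries. The mean log2 ratio was -1.27 in normal and -4.04 in model marrow, a difference of -2.77 with an exact two-sided permutation p of 0.1, the smallest that 3 libraries against 3 can give (Benjamini-Hochberg 0.2 over 30 comparisons of ratios). The differences of QJSB and leucogen from model were -0.18 (p = 0.9, exact permutation test) and -0.04 (p = 0.8, exact permutation test).

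Ighd took 13.7%, 16.4% and 17.5% of the summed Ighd and Ighm counts in the normal libraries. In the model libraries it took 3.78%, 2.87% and 4.36%, where the exact binomial 95% intervals reached from 1.83% to 6.01%. In the QJSB libraries it took 2.67%, 2.30% and 2.38%, and in the leucogen libraries 5.57%, 3.72% and 5.52%. The QJSB libraries thus lay below all model libraries (mean difference -1.22 percentage points). They also lay below all leucogen libraries, which were 2.49 points higher on the mean, each at an exact permutation p of 0.1. The intervals of single QJSB and model libraries overlapped, with 14 to 88 counts of Ighd a library. Overlap of intervals cannot decide whether the difference between QJSB and model was within counting error, and this was not tested.

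Kappa took 88.2%, 85.7% and 86.2% of the light chain counts in normal marrow and 93.5%, 96.1% and 95.2% in model marrow. The difference was 8.23 percentage points with an exact permutation p of 0.1 (Benjamini-Hochberg 0.2). The model libraries held 7, 3 and 2 lambda counts. Their exact binomial 95% intervals were 87.1% to 97.4%, 89.0% to 99.2% and 83.8% to 99.4%. The lambda genes passed the filter on low counts through normal marrow alone, so this difference is a description. Reads of 2010309G21Rik, counted in normal marrow alone, cannot be told apart from lambda reads with certainty. Kappa is the main light chain of mice. The QJSB libraries had 90.3%, 94.1% and 94.4%. The leucogen libraries had 100% of 19 counts, 61.5% of 26 and 82.9% of 41. Leucogen 2 alone gave the lower mean of that group, since without it the difference from normal was 4.74 points in place of -5.24.

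Jchain counts relative to Ighm overlapped between normal and model marrow. Jchain had 5.67, 3.67 and 3.53 counts for every 100 of Ighm in normal marrow, 2.23, 7.33 and 1.95 in model, 3.24, 2.02 and 1.29 in QJSB and 3.85, 2.08 and 2.34 in leucogen marrow. The model range enclosed the normal one, and the log2 ratio differed by -0.40 (p = 0.6, exact permutation test). The QJSB libraries all lay below the normal ones, with a log2 difference of -1.04 (p = 0.1, exact permutation test). Model 2, the model library with the highest ratio, had 57 counts of Jchain.

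The Jchain promoter is shown because Jchain was the only one of the 10 genes with a promoter in the RefSeq-based table used here. It covers 250 bases before and 50 after the start, at chr5:88527848-88528147 of GRCm38.p6 on the minus strand, and capitals mark a match to a searched motif.
Jchain: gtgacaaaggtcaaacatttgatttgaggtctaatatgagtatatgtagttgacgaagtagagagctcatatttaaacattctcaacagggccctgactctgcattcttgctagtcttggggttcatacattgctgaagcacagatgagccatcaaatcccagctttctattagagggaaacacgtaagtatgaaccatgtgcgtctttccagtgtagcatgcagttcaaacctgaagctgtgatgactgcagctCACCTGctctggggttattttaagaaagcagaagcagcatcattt
The letters CACCTG, an E-box, occurred once, beginning 5 bases after the start base, and were found on either strand in 20.2% of 32851 promoters of the same length. The octamer ATTTGCAT (in 1.74% of promoters) and the letters GAGGAA (in 28.3%), searched on both strands, had no match in this window.

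Ighm was also set against genes that mark B cells. Cd79a and Cd79b encode the signalling partners of the surface antibody, and Ms4a1 encodes a B cell surface protein. Ms4a1 had 2866 to 3775 counts in normal marrow and 4, 0 and 0 in the model libraries, and Cd79a had 985 to 1213 and 64, 15 and 5. Model 3 thus held 768 counts of Ighm beside 0 of Ms4a1 and 5 of Cd79a. Leucogen 1 held 441 counts of Ighm beside 0 of Cd79a and Ms4a1, and 65 of Cd79b. Ighm had 2.01, 1.75 and 1.80 counts for each count of the 3 markers together in normal marrow. It had 5.66, 5.56 and 5.77 in model, 8.03, 6.40 and 7.76 in QJSB and 6.78, 5.17 and 6.45 in leucogen marrow. All 9 treated libraries lay above the normal ones, and the QJSB libraries above all model libraries, each with an exact permutation p of 0.1 (Benjamini-Hochberg 0.2). Most of the marker counts of the treated libraries came from Cd79b, with 51 to 328 counts. Cd79b had 3430, 3596 and 3703 counts in normal and 328, 125 and 128 in model marrow, a smaller fall than those of Cd79a and Ms4a1. Cd79a and Ms4a1 passed the filter on low counts through the normal libraries alone, so the rise of this ratio from normal is a description. Gene counts cannot tell complete mu transcripts from those of unjoined or partly joined heavy chain loci.

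**Figure D3:**
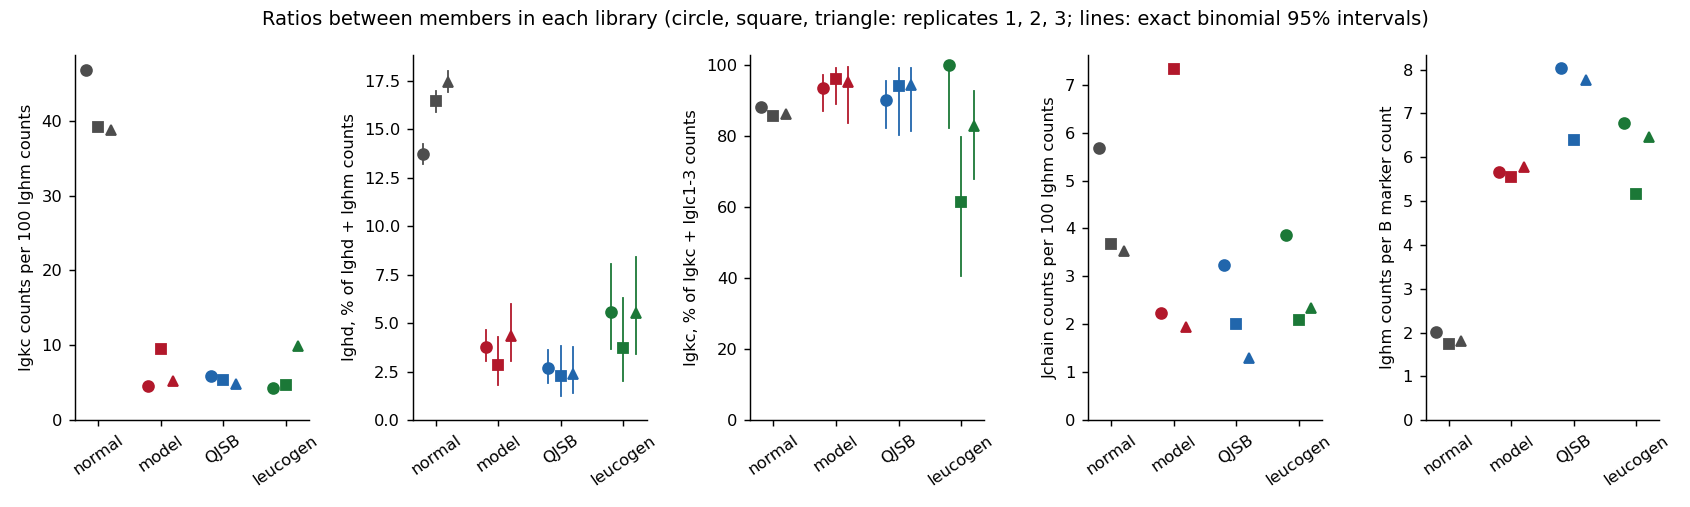
The 5 ratios of counts in each library by group, on linear axes from 0; circles, squares and triangles are replicates 1, 2 and 3, and vertical lines are exact binomial 95% intervals of the 2 shares. Igkc per 100 Ighm and the Ighd share lay lower in all 9 treated libraries than in the 3 normal ones, and Ighm per B cell marker count lay higher. The last ratio is a description, since Cd79a and Ms4a1 passed the filter on low counts through normal alone.

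The genes around the antibody genes were read as lists. Of 11 tested genes of B cell receptor partners and mature B cells, Cd79a, Ms4a1 and Cr2 passed the filter on low counts through the normal libraries alone and are given as a description. The other 8 were called lower in model than in normal marrow, where 19% of all genes were called lower, with a median log2 fold change of -4.40 against 0.02 over all genes tested. Of these 8, Pax5 (277, 67 and 6 counts in model marrow) and Fcrla (39, 7 and 8) also passed this filter through normal marrow alone. Their calls, and their part in the median, are a description. Cr2, a complement receptor of mature B cells, was at 74.4 to 109 CPM in normal and at most 0.288 CPM in model marrow. Fcrla, a B cell Fc receptor-like protein, had a log2 fold change of -5.75. Of the 9 pre-B genes, Vpreb2 and Vpreb3 passed the filter through normal marrow alone. Of the other 7, 5 were called lower and the median was -3.14. Of these 7, Vpreb1, Rag2 and Igll1 had 1, 11 and 5 counts in model 3 and also passed this filter through normal marrow alone. The count and the median are thus partly a description. The B lineage transcription factor Ebf1 (-4.72) and the recombinase gene Rag1 (-3.74) fell most among the 7, and the value of Vpreb3 was -5.14. Igll1, the lambda5 part of the surrogate light chain, was at 17.3, 3.33 and 0.288 CPM in the model libraries against 29.0 to 36.5 in normal, and was not called.

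Plasma cell genes did not move one way. Of 14 tested, 6 were called lower and 4 higher in model than in normal marrow, against 19% and 16.1% of all genes, with a median log2 fold change of 0.19. The largest falls were those of Pou2af1 (-5.76), a coactivator at immunoglobulin promoters, Irf4 (-4.66), a transcription factor of B cell activation and plasma cells, and Slamf7 (-4.05), a surface receptor of plasma cells and other lymphocytes. The rises were Fkbp11 (3.22), a prolyl isomerase, Xbp1 (1.75), the transcription factor that expands the secretory pathway, Creld2 (0.97) and Edem1 (0.71), both proteins of the endoplasmic reticulum. These 4 genes are used by secretory cells of other lineages as well. Pou2af1 (204, 22 and 2 counts in model) and Mzb1 (59, 12 and 2) passed the filter on low counts through normal marrow alone. Fkbp11 (2, 8 and 9 counts in normal) passed it through model marrow alone. The values of Pou2af1, Mzb1 and Fkbp11 are therefore a description. Prdm1, which encodes the regulator Blimp-1, had a log2 fold change of -0.06 ± 0.37 and was not called, and Tnfrsf17, the plasma cell receptor BCMA, had 2 to 4 counts in normal libraries and at most 2 in any other.

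Of the 16 genes of antibody folding and secretion, which serve all secreted proteins, 10 were called higher and 0 lower in model than in normal marrow, against 16.1% and 19% of all genes, with a median log2 fold change of 0.75. Sdf2l1 (2.05), Pdia6 (1.80) and Pdia4 (1.47), all in the endoplasmic reticulum, rose most. Of the 7 granulocyte markers, Mpo (3.22) and Elane (2.67), which early granulocyte cells make in bulk, were called higher and Camp (-1.69) lower, with a median of -0.58 over the 7. The part of these cells in the folding genes was not tested.

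Antibody receptors and switch genes completed the lists. Fcmr, the receptor for IgM, was at 27.2 to 37.6 CPM in normal and at most 0.115 CPM in model marrow, and Fcer2a, the B cell IgE receptor, had a mean of 30.8 ± 4.74 CPM against 0.0577 ± 0.0577. Both passed the filter through the normal libraries alone, so these values are a description. Fcgr2b, the inhibitory IgG receptor of B cells and myeloid cells, was higher, with a log2 fold change of 0.72. Of 11 switch and hypermutation genes, which act in DNA repair in all cells, Hmces (-1.08) and Xrcc6 (-1.06) fell and Apex1 (0.82) rose. These are 3 of 11 genes, where 35.1% of all genes were called in either direction.

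Between QJSB and model, 0 genes of these lists were called. The median log2 fold change was -2.16 for 7 pre-B genes tested and -0.98 for 8 genes of B cell receptor partners, against -0.02 over all genes, and 4 and 2 of them were lower at the unadjusted rule, which 1.4% of all genes passed in that direction. Rag1 and Rag2, with 3 and 6 counts in QJSB 3, passed the filter here through the model libraries alone. Between leucogen and model, 9 of 16 folding genes were called lower, against 11.5% of all genes, with Pdia4 (-1.72), Sdf2l1 (-1.47) and Pdia6 (-1.43) first and a median of -0.70 against -0.05 over all genes. Of 11 plasma cell genes tested, 5 were called lower, with Fkbp11 (-2.39), Irf4 (-2.18) and Creld2 (-1.23) first. Fkbp11 passed the filter through the model libraries alone, so its value is a description. Cd74 (-1.68), the invariant chain of antigen presentation, and Cd79b (-1.27) fell, and Cd37 (0.59), a tetraspanin of leucocytes, rose. Dntt (-3.23), the polymerase that adds bases at joints of the heavy chain, was the 1 of 6 pre-B genes called. Fcgrt (-1.47), the transporter that protects IgG, was also lower, as were Apex1 (-1.25), Exo1 (-0.72) and Xrcc6 (-0.63). Of the 7 granulocyte markers, 5 were called higher with leucogen and 2, Mpo (-1.23) and Elane (-0.96), lower, with a median of 2.32. The part of these cells in the lists was not tested.

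**Figure D4:**
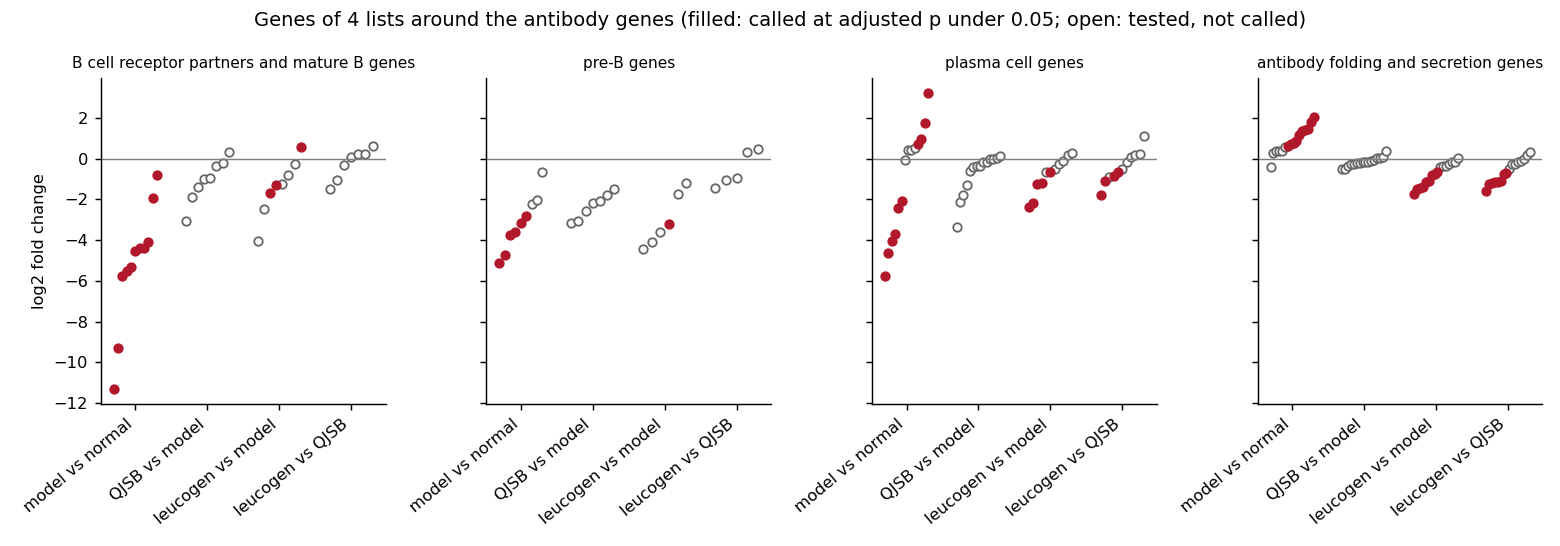
Log2 fold change of each tested gene of 4 lists in 4 comparisons; filled points were called at an adjusted p under 0.05 with a change of over 1.5-fold. In model against normal, 8 of the 11 genes of B cell receptor partners could also be tested between QJSB and model and were called lower. Of these 8, Pax5 and Fcrla, like the other 3, passed the filter here through normal alone. In the same comparison 10 of 16 folding genes were called higher, and in leucogen against model 9 of 16 folding genes were called lower.

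Genes whose log2 CPM ran most like that of a member over the 12 libraries were listed from 15198 genes, with Pearson's r as a description. The points share the wide gap between normal and treated libraries. For Ighm they were Akap12 (0.995), Cd79b (0.995), Foxo1 (0.994), Spib (0.993) and Snn (0.992). For Igkc they were Cpm (0.994), Cd72 (0.992), Btla (0.991), Spib (0.991) and Cd79b (0.990). For Jchain they were Rasgrp1 (0.990), Gm37124 (0.985), Ciita (0.985), P2ry14 (0.984) and Scimp (0.982). Igha had lower values, with Sit1 (0.969), Slc12a3 (0.969), Gm10603 (0.968), Ccnb1 (0.967) and Zfp317 (0.967). Ighm and Igkc shared Cd79b and Spib, and none of the genes listed for Jchain was among those of Ighm or Igkc.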

How the data were processed

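The authors prepared strand-specific libraries from RNA of 12 femoral marrows depleted of ribosomal RNA, and reads were filtered with Seqtk and mapped with Hisat2 to GRCm38.p4, allowing 2 mismatches. The program that counted reads is not given in the sources used here. The deposited table gives whole-number counts per gene without normalization, and FPKM values that the authors computed per transcript length and fragment total. The columns were assigned to groups by their headings, and 0 columns were left unused. Depth, 11172547 to 18545198 counts, limits the precision of genes with few counts.

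Counts were tested with edgeR 4.0.16 in R 4.3.3 (TMM, filterByExpr, robust glmQLFit, glmQLFTest, Benjamini-Hochberg over all genes tested) in 6 pairwise fits and checked on simulated counts. Ratios of counts were compared by exact two-sided permutation tests (SciPy) and shares given exact binomial (Clopper-Pearson) 95% intervals. A fold against 0 counts was set against 3 counts over the group. Replicates are separate mice.

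The genes and lists were chosen with earlier results of these data known. All 10 genes are described, with at most the 3 largest called rises and falls of each list, every gene of a list of 5 or fewer, and the 5 most like genes by Pearson's r of log2 CPM (prior count 2). Cd79a, Cd79b and Ms4a1 as divisor, Igll1, Prdm1, Tnfrsf17, Edem1 and the granulocyte genes were named after their values were seen. The same holds for genes named for the group through which they passed the filter. Of 2 of the lists, 1 gene each is not reported here. Alternatives were DESeq2 1.42.0, its size factors, total counts, no filter, all 12 libraries, a replicate block, limma-trend 3.58.1 on log2(FPKM + 0.1), FPKM for the ratios, and each library left out.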

Additional observations from a re-analysis of the deposited data

Results flagged for a closer look

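The effects of leucogen and QJSB, both against the same model libraries, differed in 8 of the named list genes by edgeR's test of leucogen against QJSB, with Benjamini-Hochberg adjustment over all genes. Named here are at most the 3 largest rises and falls of each list. Called in all were 4 of 11 plasma cell, 8 of 16 folding, 1 of 11 switch and 1 of 3 antibody receptor genes tested. Of the B cell receptor partners 0 of 7 were called, and of the pre-B genes 0 of 5. Of the plasma cell list, Fkbp11 had a log2 fold change of -1.77 (adjusted p = 0.0383), Creld2 of -1.10 (adjusted p = 0.0169) and Txndc5 of -0.83 (adjusted p = 0.0448) in leucogen against QJSB. Fkbp11 had 10, 13 and 6 counts with leucogen and passed the filter through the QJSB libraries alone, so its value is a description. Of the folding list, Pdia4 had -1.57 (adjusted p = 0.00495), Sdf2l1 -1.24 (adjusted p = 0.00794) and Hyou1 -1.18 (adjusted p = 0.0261). These 6 encode proteins of the endoplasmic reticulum, and 8 of the 16 folding genes were called lower, where 12.9% of all genes were called lower and 24.6% in either direction. Fcgrt, the IgG transporter, had -1.20 (adjusted p = 0.0448), and Rif1, a DNA repair protein, had 0.79 (adjusted p = 0.00846). Of the 7 granulocyte markers, 2 were called lower with leucogen, Mpo (-1.56) and Elane (-1.28), and 1 higher, S100a9 (1.60), with a median of 0.83 over the 7 and 5 above 0. Their part in these differences was not tested.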

How the results depend on the processing

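The fall of Ighm, Ighd, Igkc and Jchain from normal kept its direction and its call in all 52 values from alternative settings (4 genes) in each of model, QJSB and leucogen. The other 6 genes passed the filter through normal alone and are not counted. With QJSB and with leucogen Jchain also did so, and its values in those groups are a description. Against model, Jchain passed the filter through the model libraries alone with both drugs, so its values there are a description too. Between leucogen and model, the count of called genes was 1 (Ighm) under DESeq2, total counts, all 12 libraries, the replicate block and limma-trend on FPKM, and ran from 0 to 4 with a library left out. The 4 without model 3 were Ighm, Igkc, Jchain and 1 gene with too few counts to be tested when no library was left out of the pair, and Ighd was not called. Over all genes, QJSB against model gave 0 calls by edgeR, 8 by DESeq2, 18 with the replicate block and 3 without QJSB 1. Leucogen gave 3275 calls against model, with 1724 and 1239 when leucogen 1 and leucogen 3 were left out, and 3511 against QJSB, with 2157 without leucogen 1 and 1544 without leucogen 3. Scaling by total counts moved the median over all genes to -0.22 (log2) in leucogen against model and to -0.12 in leucogen against QJSB. Between leucogen and QJSB the count of called genes among the 10 was 1 (Ighm) under the replicate block, and ran from 0 to 1 with a library left out. Against model, Ighm under the block had a log2 fold change of -1.16 (adjusted p = 0.0268), and against QJSB -0.65 (adjusted p = 0.0327). Same-numbered libraries did not correlate over 0.1 in every pair of any comparison (0.431, 0.117 and 0.0834 for QJSB and model), so the numbers were not taken as pairs. Leucogen and QJSB libraries correlated best with their own number in 6 of 6 cases, a hint from the data and not from the design.

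Directions that turned were Ighm in QJSB against model, whose log2 fold change ran from -1.001 to 0.0225 with a library left out (the highest without model 1), and Igkc (-1.07 to 0.0139) and Jchain (-0.95 to 0.51) in leucogen against QJSB, the highest of both without QJSB 1 or, chosen after the data had been seen, without model 1 and QJSB 1. With each library left out, the difference in kappa share between leucogen and normal ran from -14.5 to 4.74 points, that of log2 Jchain per Ighm between leucogen and model from -0.61 to 0.35, and that of log2 Igkc per Ighm from -0.39 to 0.15 for QJSB against model, -0.42 to 0.28 for leucogen against model and -0.25 to 0.36 for leucogen against QJSB. The ratios to Igkc and to B cell markers were chosen after the data had been seen. The causes were not tested. Depth limits the lambda, IgG and IgA genes among the treated groups, where a library held 0 to 43 counts of any of them.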
